A study of Caenorhabditis elegans with 2 samples.

Results

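The X chromosome of Caenorhabditis elegans held 777 of the 4037 HMG-11 peaks, and 337 of these lay far from any protein-coding gene start. A peak was placed in this set when its summit, the base of highest enrichment given by the authors, was more than 1000 bp from every protein-coding transcript start in the Ensembl annotation of WBcel235, the assembly also called ce11. The 440 other X peaks, with summits within 1000 bp of a coding start, are called near peaks. The 3114 X regions that met the same distance rule but were listed without being peaks are called other far regions. Binding was mapped by chromatin immunoprecipitation and sequencing with an anti-GFP antibody, per the sample descriptions, although the antibody field of the labels reads hmg-11. There was 1 group with 2 biological replicates of whole hermaphrodites of strain TH184, at the third larval stage, 52 h after synchronisation by starvation of hatched larvae. Both replicates carried the unc-119(ed3) III mutation and the integrated transgene ddIs101, which expresses HMG-11 with a GFP and FLAG tag at its C-terminus. The labels do not say which promoter drives the transgene. The labels name a possible control experiment that was not analysed here, so no peak could be set against an untagged strain or an input library. Whole animals mix all tissues, so the cells in which a site was bound cannot be told.

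HMG-11 is a protein of the HMGA type, small chromatin proteins with AT-hook motifs that grip the narrow minor groove of DNA rich in A and T. In hermaphrodites the dosage compensation complex, a condensin-like machine, lowers transcription from both X chromosomes. It is known to load at recruitment sites marked by a short GC-rich motif that is enriched on X, and many of these sites lie away from gene starts. tRNA genes, which are numerous on the X chromosome of this species, are transcribed by RNA polymerase III from promoter elements inside the gene. Stretches of alternating G and A are common in worm promoters and other open chromatin.

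Each of the 337 far peaks was placed in 1 class by what lay at its summit. There were 12 peaks with the letters GCGCAGGG, the core of the X recruitment motif, within 50 bp of the summit. Of the rest, 71 lay within 500 bp of a tRNA gene start, 77 had the repeat GAGAGA within 50 bp, and 177 had none of these. The strongest peaks of the first class are shown because that match was the rarest among the listed regions. They are printed 5′ to 3′ on the plus strand, 50 bp on either side of the summit, from the RefSeq sequence of WBcel235, with the core or its reverse complement in capitals.
gtr-1 peak, chrX:806633-806733: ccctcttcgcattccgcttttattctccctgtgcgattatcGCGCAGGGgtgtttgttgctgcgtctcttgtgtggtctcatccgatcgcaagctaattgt
W02H3.3 peak, chrX:11094144-11094244: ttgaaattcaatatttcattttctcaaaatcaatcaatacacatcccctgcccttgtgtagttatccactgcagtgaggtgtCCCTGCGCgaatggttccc
mom-1 peak, chrX:6296477-6296577: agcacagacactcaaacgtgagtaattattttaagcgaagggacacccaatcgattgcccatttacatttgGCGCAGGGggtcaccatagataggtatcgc
xol-1 peak, chrX:8036427-8036527: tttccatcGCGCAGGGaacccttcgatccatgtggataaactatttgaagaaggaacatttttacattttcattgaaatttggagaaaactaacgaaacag
Y41G9A.17 peak, chrX:2997103-2997203: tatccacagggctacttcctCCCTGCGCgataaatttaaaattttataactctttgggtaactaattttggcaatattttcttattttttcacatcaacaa
F20B6.9 peak, chrX:4209266-4209366: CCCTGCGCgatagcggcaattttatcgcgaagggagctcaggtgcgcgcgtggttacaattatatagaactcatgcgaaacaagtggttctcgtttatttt
The middle of the core lay 5.5 bp from the summit in the gtr-1 peak and 46.5 bp from it in the F20B6.9 peak. Of the 12 cores, 4 were within 25 bp of the summit, and the others lay farther out within the 50 bp searched. The summit is not always the middle of the peak, and distances to that middle were not measured.

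The strongest peaks of the tRNA class are shown with 100 bp on either side of the summit, because the tRNA gene can begin outside the shorter window. Capitals mark bases of annotated tRNA genes on either strand.
M02F4.2 peak, chrX:3036015-3036215: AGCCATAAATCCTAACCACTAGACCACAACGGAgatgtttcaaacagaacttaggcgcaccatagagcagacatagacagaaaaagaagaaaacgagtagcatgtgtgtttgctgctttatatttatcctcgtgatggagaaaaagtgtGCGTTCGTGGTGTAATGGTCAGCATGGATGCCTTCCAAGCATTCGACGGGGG
sulp-3 peak, chrX:8404318-8404518: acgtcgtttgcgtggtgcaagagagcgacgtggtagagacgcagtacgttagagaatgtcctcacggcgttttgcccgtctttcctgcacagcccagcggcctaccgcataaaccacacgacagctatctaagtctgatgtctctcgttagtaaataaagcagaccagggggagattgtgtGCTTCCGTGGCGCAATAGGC
F15G9.5 peak, chrX:9743536-9743736: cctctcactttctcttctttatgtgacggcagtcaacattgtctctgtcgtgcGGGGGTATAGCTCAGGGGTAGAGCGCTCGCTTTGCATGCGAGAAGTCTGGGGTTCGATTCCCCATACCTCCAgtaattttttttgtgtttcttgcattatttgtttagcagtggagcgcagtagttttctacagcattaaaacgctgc
The M02F4.2 peak had its summit 49 bp upstream of the glycine tRNA gene M02F4.t1, between that gene and a second annotated tRNA gene at the left end of the window. The summit of the sulp-3 peak was 81 bp upstream of the asparagine tRNA gene F41D9.t3. In the F15G9.5 peak the summit was 47 bp inside the alanine tRNA gene F15G9.t1.

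For the GA repeat class the capitals mark GAGAGA, and the windows again hold 50 bp on either side of the summit.
ZK899.6 peak, chrX:9465815-9465915: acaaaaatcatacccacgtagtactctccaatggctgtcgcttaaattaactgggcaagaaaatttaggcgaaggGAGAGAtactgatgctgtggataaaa
W01H2.2 peak, chrX:4223015-4223115: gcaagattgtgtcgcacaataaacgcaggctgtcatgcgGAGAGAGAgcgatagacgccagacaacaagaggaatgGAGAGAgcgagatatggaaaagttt
F52D2.7 peak, chrX:1965020-1965120: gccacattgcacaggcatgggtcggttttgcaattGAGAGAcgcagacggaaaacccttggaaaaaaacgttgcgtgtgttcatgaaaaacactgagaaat
The W01H2.2 peak held a longer run of the repeat and a second copy, and the other two held a single match each.

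Far peaks were slightly weaker than near peaks in median signal and made up a smaller share of the regions listed at their distance. Of 3451 listed X regions far from coding starts, 337 were peaks (9.77%), against 20.6% of the 2136 listed regions near coding starts and 13.5% of all 30000 listed regions. Taking the 4037 strongest regions of each replicate in place of the peaks, 334 far X regions were found with replicate 1 alone and 350 with replicate 2 alone. The pooled signal, the authors' own enrichment value on a scale the labels do not state, had a median of 104.8 in far peaks, with the middle 50% between 79.9 and 143.1. In near peaks the median was 114.8. The log2 ratio of the far median to the near median was -0.13, and it was -0.14 with replicate 1 alone and -0.21 with replicate 2 alone. The ranges overlapped over nearly their whole length, from 67.9 to 389.9 in far peaks and from 67.9 to 356.2 in near peaks. Among the 100 strongest peaks of the genome 17 were far X peaks and 18 were near X peaks, which is 5.04% of the far and 4.09% of the near peaks, so the lower median did not extend to the strongest peaks.

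Every one of the 337 far peaks was listed in both replicates, as were 439 of the 440 near peaks (99.8%). A match needed only 1 bp of overlap with any listed region, so this count does not set far peaks apart. Among the 4037 strongest regions of both replicates were 243 of the far peaks (72.1%, 95% Wilson interval 67.1 to 76.6). The same held for 365 near peaks (83.0%) and 76.5% of all peaks. Replicate 1 held 273 of the far peaks among its strongest regions and replicate 2 held 304, and 3 far peaks were among the strongest of neither. Across the far peaks the replicate signals had a Spearman rho of 0.72, which describes regions of the same 2 libraries and is no test. Many listed regions overlapped. Of the 337 far peaks, 57 (16.9%) overlapped another X peak, 314 had the same width of 456 bp, and 308 remained when only the strongest of each overlapping group was kept. Behind the 337 peaks stood 310 distinct regions in each replicate, so some neighbours share their replicate values. All intervals here cover counting error over regions only and treat such neighbours as separate.

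**Figure D1:**
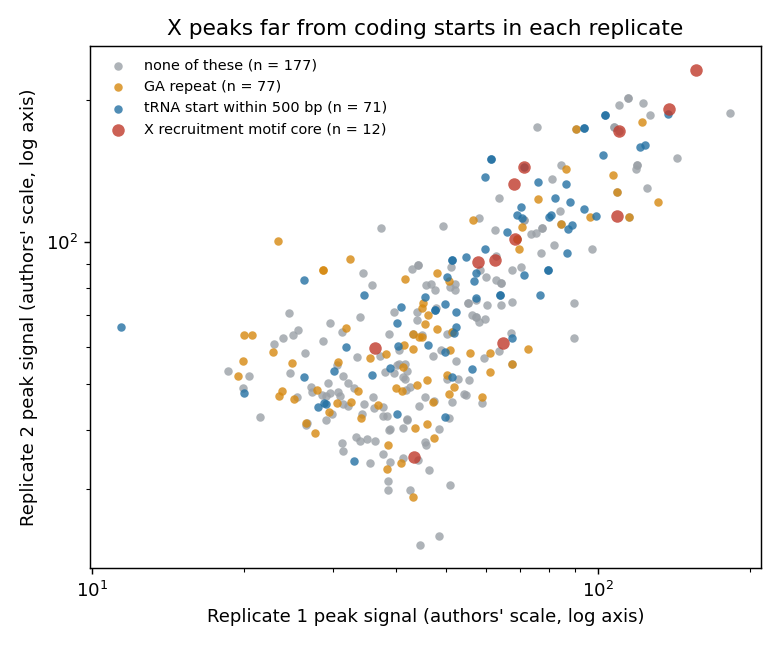
Peak signal of the 337 far X peaks in replicate 1 (horizontal, log axis) and replicate 2 (vertical, log axis), on the authors' scale, coloured by class. The 12 peaks with the motif core run from the top right corner, where the gtr-1 peak has 155.9 and 231.3, down to the stn-2 peak at 43.3 and 35.1.

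The strongest far X peak lay between the converging genes gtr-1 and F25E2.2 (chrX:806573-806782). It ranked 3 of all pooled peaks with a signal of 389.9, and it ranked 5 in replicate 1 and 4 in replicate 2. Its summit was 3905 bp downstream of the gtr-1 start, in intergenic sequence, and it holds the core. Next was the peak of chrX:13700807-13700960, 6047 bp upstream of K02D3.1, with a pooled signal of 363.5. The replicates placed this peak differently, at rank 2 in replicate 1 and 37 in replicate 2, and it belonged to none of the classes. The third far peak, of rank 25, was again between converging genes and held the core (W02H3.3, chrX:11094083-11094301, signal 322.2). Its signal was 138.2 in replicate 1 and 190.6 in replicate 2.

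The other 9 of the 12 strongest far peaks had pooled signals between 278.7 and 315.7. Outside genes were the peaks of F22H10.2 (rank 27), M02F4.2 (rank 28, at a tRNA gene), pigx-1 (rank 30) and ZK899.6 (rank 38, with the GA repeat). pigx-1 is named for a subunit of an enzyme of GPI anchor synthesis. Within introns lay those of F09A5.3 (rank 32), inso-1 (rank 41), ldb-1 (rank 53) and sulp-3 (rank 58, at a tRNA gene). ldb-1 encodes a partner of LIM domain proteins and sulp-3 a transporter of the sulfate permease family. The F15G9.5 peak (rank 66) lay inside him-4, which encodes the extracellular matrix protein hemicentin, at a tRNA gene. In replicate 1 these 9 peaks ranked from 14 (ldb-1) to 146 (sulp-3), and in replicate 2 from 18 (pigx-1) to 137 (ldb-1).

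The core GCGCAGGG, searched on both strands, was found in 12 far peaks (3.56%, interval 2.05 to 6.12) and in 5 near peaks (1.14%). It was in 2 of the 3114 other far regions (0.0642%) and in 0.0907% of the 1103 autosomal peaks that met the same distance rule. All listed regions of the genome held it in 0.11%. With replicate 1 alone the share of far X regions was 3.59%, and with replicate 2 alone it was 3.14%. The X chromosome holds 81 copies of these letters, of which 12 fell in far peak windows, 5 in near peak windows and 2 in windows of other far regions. The core with at most 1 mismatch was in 13.6% of far peaks, 8.41% of near peaks, 2.31% of other far regions and 7.71% of far autosomal peaks. Looking for this core was decided after the data had been seen, and the difference between far and near peaks rests on 12 and 5 peaks.

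These 12 peaks had a median pooled signal of 183.2, against 125.2 in the tRNA class, 99.3 in the GA repeat class and 93.7 in the peaks of no class. Near peaks had the same order of medians, with 209.4 for 5 core peaks, 138.3, 127.6 and 106.6. Of the 12, 83.3% were among the 2018 strongest peaks of the genome, against 49.3% of all far peaks, and 91.7% were among the strongest regions of both replicates, against 72.1%. In the far tRNA class these shares were 70.4% and 85.9%. For the 5 near core peaks they were 60% and 80%. The near tRNA class had 62.5% and 90.6%, the near GA repeat class 67.6% and 86.6%, and near peaks of no class 50.2% and 80.1%. Among near peaks the core class thus did not lead in these shares. Of the 12 far core peaks, those nearest named genes included mom-1 (rank 67), which encodes an acyltransferase for Wnt proteins, and xol-1 (rank 272), the switch gene that reads the X to autosome ratio and sets sex and dosage compensation. The xol-1 peak had a signal of 71.4 in replicate 1 and 144.0 in replicate 2, and its summit was 4836 bp upstream of the xol-1 start. It was also 280 bp downstream of the start of the arginine tRNA gene C18A11.t2, and it overlapped a second far peak of rank 1416 at the same tRNA gene, which shares its replicate values. Weaker members lay near dpy-23 (rank 622), a subunit of the AP-2 clathrin adaptor, col-185 (rank 895), a collagen gene, and sedl-1 (rank 2230), a vesicle tethering factor. The weakest was in an intron of stn-2 (rank 3237, signal 79.7), a syntrophin gene, and ranked 2399 in replicate 1 and 5048 in replicate 2.

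**Figure D2:**
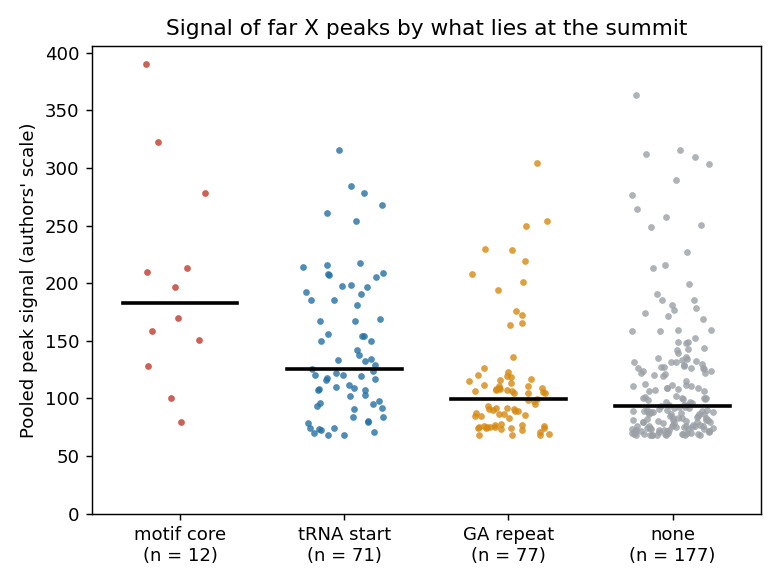
Pooled signal (authors' scale, axis from 0) of each far X peak, by class, with a black line at the median and random sideways spread. The medians are 183.2 for 12 peaks with the motif core, 125.2 for 71 at tRNA genes, 99.3 for 77 with the GA repeat and 93.7 for the 177 others, and the classes overlap widely.

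A tRNA gene start lay within 500 bp of 72 far peaks (21.4%, interval 17.3 to 26.1), 1 of which also held the core. The share was 7.27% in near peaks, 2.44% in other far regions, 6.44% in far autosomal peaks and 1.56% in all listed regions. With replicate 1 alone it was 19.5% and with replicate 2 alone 20.6%. When 1 peak per overlapping group was kept it was 64 of 308 (20.8%). The summits lay close to the gene start, 64 of 72 within 100 bp, with a median position 5.5 bp upstream and the middle 50% from 28.3 bp upstream to 42.3 bp downstream. Far peaks at tRNA genes had a median signal of 127.0, and those without had 97.6.

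**Figure D3:**
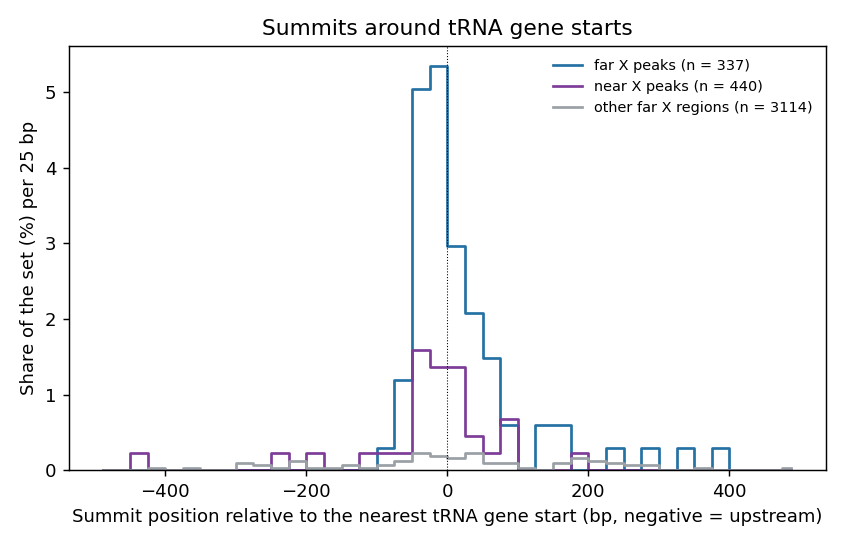
Share of each set of X regions (percent per 25 bp) whose summit lies at a given distance from the nearest tRNA gene start, with negative distances upstream. The far peaks rise around the start, where 64 of the 72 with a tRNA gene within 500 bp lie within 100 bp, and the 3114 other far regions stay low throughout.

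Counted by tRNA gene, the shares with a peak were close for genes far from and near to coding starts. The X chromosome has 276 annotated tRNA genes, of which 201 start more than 1000 bp from a coding start. Of those 201 genes, 82 had a peak summit within 500 bp (40.8%, interval 34.2 to 47.7), and of the 75 others 32 had one (42.7%, interval 32.1 to 53.9). On autosomes the share was 127 of 336 (37.8%, interval 32.8 to 43.1). The intervals of all 3 overlap. The 72 far peaks had 66 of the 276 X tRNA genes as their nearest, of 20 product types. The highest counts were for glycine (7 of 20 X copies) and serine (7 of 18). Arginine (5 of 27), proline (5 of 20) and threonine (5 of 14) followed. By share of X copies the range was from methionine (1 of 8) to tryptophan (3 of 5). The counts per product are small, and no preference among products is read from them.

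Strong examples besides those printed above were at F46G11.t2, a proline tRNA gene (rank 83, signal 267.8), and C02B4.t2, a tyrosine tRNA gene (rank 96, signal 261.3). The summit of the second lies in an intron of nhr-17, and the nearest coding start belongs to nlp-76, a neuropeptide-like gene. A start of the class annotated as ncRNA lay within 500 bp of 117 far peaks (34.7%), more than for tRNA genes, but many of these also had a tRNA start. Of all far peaks, 20.2% had an ncRNA start and no tRNA start, against 18.4% of near peaks and 16.6% of other far regions. Among those without a tRNA start the ncRNA share was 25.7% in far peaks (interval 20.8 to 31.2). It was 19.9% in near peaks and 17.1% in other far regions (interval 15.8 to 18.4). The other noncoding classes were rarer, with a miRNA start at 3 far peaks (0.89%). The miRNA share was 0.71% in other far regions, 0.68% in near peaks and 1.72% in far autosomal peaks. Of the 3 miRNAs, mir-54 was 305 bp downstream of a strong summit (rank 32, signal 309.5), in an intron of F09A5.3. let-7, the miRNA that times the larval to adult switch, was 344 bp downstream of a weak summit (rank 3191, signal 80.8). The third was mir-8196.1 (rank 3675), and there was 1 peak each at the snoRNA gene C34E11.20 and at linc-54. Each of these is 0.30% of far peaks, against 0.16% (snoRNA) and 0.42% (lincRNA) of other far regions.

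**Figure D4:**
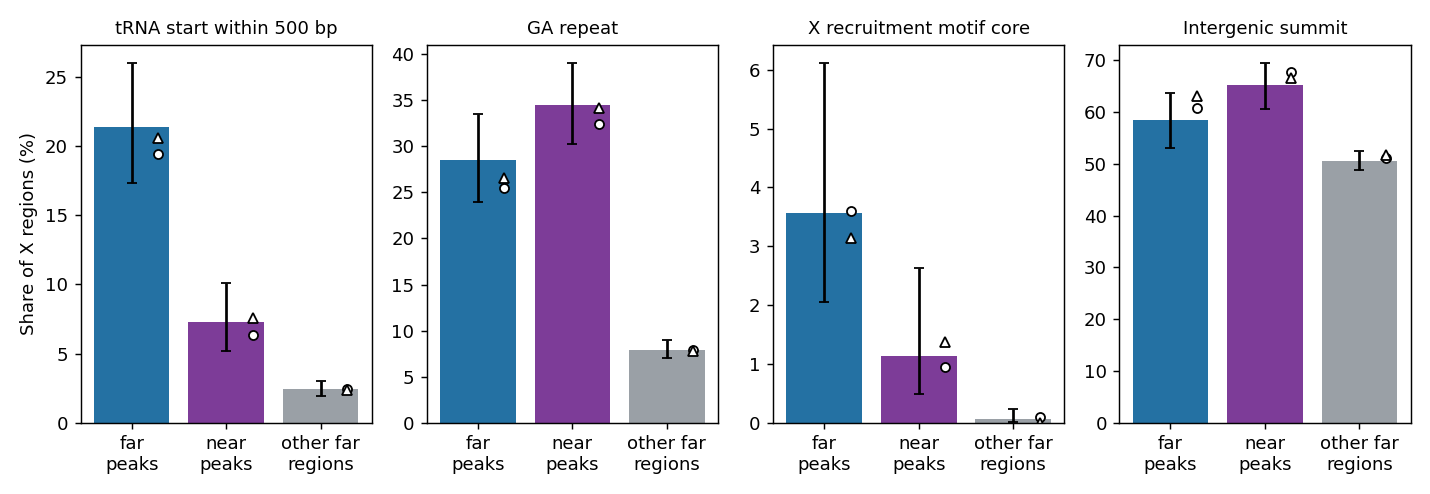
Share (percent, axes from 0 with a scale of their own) of far X peaks, near X peaks and other far X regions with a tRNA start within 500 bp, the GA repeat, the motif core, or an intergenic summit. Bars are the pooled lists with 95% Wilson intervals, circles are replicate 1 alone and triangles replicate 2 alone. Far peaks stand at 21.4% for tRNA starts, 28.5% for the GA repeat, 3.56% for the core and 58.5% for intergenic summits.

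The DNA at far summits was richer in G and C than its surroundings. In the 101 bp around the summit A+T content averaged 52.2% in far peaks (SD 7.13 over 337 regions), 50.2% in near peaks, 62.5% in other far regions and 64.8% over the whole X chromosome. Far autosomal peaks averaged 52.4%. The far peaks of replicate 1 alone averaged 53.8% and those of replicate 2 alone 52.4%. The lowest mean of the far profile, 51.1%, was 10 bp from the summit. The letters that AT-hook proteins are known to contact were less common at peaks than at other far regions. AATT was in 38% of far peaks, 26.4% of near peaks and 67.0% of other far regions. AAATTT, which contains AATT, was in 7.12%, 3.86% and 19.6% of these sets. The run AAAAAA was in 23.4% of far peaks and 43.9% of other far regions, TTTAAA in 3.56% and 11.7%, and TATATA in 2.67% and 3.56%. GAGAGA had the opposite order, with 28.5% of far peaks, 34.5% of near peaks, 41.8% of far autosomal peaks and 7.93% of other far regions. The E-box CACGTG was in 1.48% of far peaks and 1.83% of other far regions, and GATAAG, the GATA factor motif, in 2.08% and 3.34%. Every motif was searched on both strands, and A+T content and motif shares describe the same bases.

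**Figure D5:**
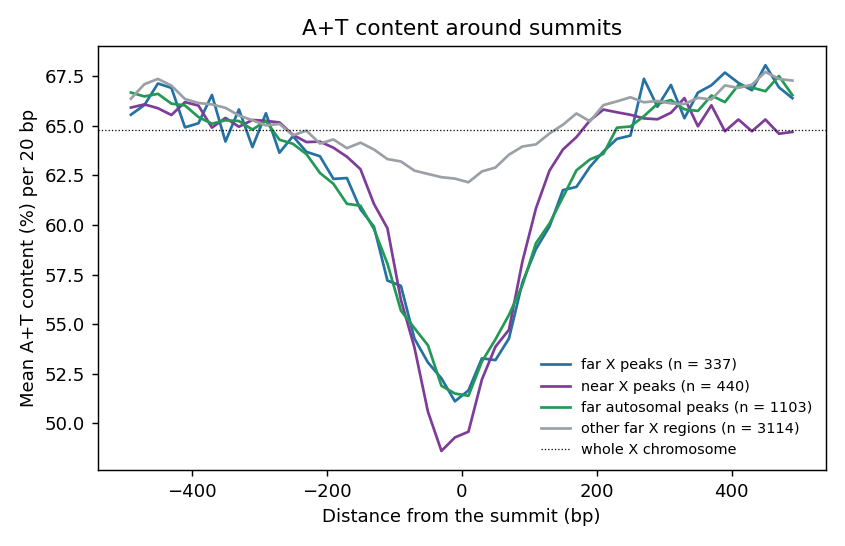
Mean A+T content (percent, in bins of 20 bp) against distance from the summit for 4 sets of regions, with the X chromosome mean of 64.8% as a dotted line; the vertical axis does not start at 0. Far X peaks dip to 51.1% and near X peaks to 48.6%, while other far X regions go no lower than 62.1%.

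Most far peaks were between genes. Summits were intergenic in 197 (58.5%), in an intron of a coding gene in 67 (19.9%), in a noncoding exon in 67 and in a coding exon in 4 (1.19%). Other far regions were intergenic in 50.6%, intronic in 29.5%, in a noncoding exon in 6.74% and in a coding exon in 8.80%. Inside a coding gene were 89 far peaks (26.4%), against 44.5% of other far regions and 25.5% of near peaks. Near peaks were intergenic in 65.2%. Of the 248 outside coding genes, 131 lay between genes in the same direction, 88 between diverging genes and 29 between converging genes. The 29 between converging genes had the highest median signal, 158.3, in the shortest gaps (median 3396 bp), and those between diverging genes had 94.7 in gaps of 10705 bp. The rest, between genes in the same direction, had 107.7. The distance rule itself shapes these gaps, since the gap between diverging genes holds both starts and must be long. A gap between converging genes holds neither start and can be short. Orientations are given for far peaks only, and their signals were not split by class. The summit was upstream of the nearest coding start in 65.9% of far peaks, 85.7% of near peaks and 57.5% of other far regions.

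The median distance to the nearest coding start was 2520 bp. Up to 2000 bp there were 129 far peaks, from there to 5000 bp 157, up to 10000 bp 47, and 4 lay beyond. Median signals in these 4 ranges were 106.0, 105.8, 98.8 and 158.4. The peak farthest out was 14541 bp upstream of gei-3 (rank 3262, signal 79.2). After it came those nearest got-2.2, an aspartate aminotransferase gene (11325 bp, signal 107.9), B0294.3 (11249 bp, signal 254.1) and T24D5.1 (10990 bp, signal 208.9). The B0294.3 summit was 50 bp from a tRNA start and the T24D5.1 summit 5 bp from one. The next were nmur-1, a neuropeptide receptor gene (9387 bp), and W05H9.4 (9321 bp). A tRNA start also lay 11 bp from the nmur-1 summit. Just inside the limit were peaks of snx-17 (1003 bp, signal 120.1), C34F6.10 (1011 bp, signal 75.7) and suca-1 (1013 bp, signal 74.0). Just outside were gid-2 (998 bp, signal 131.3), fbxl-4 (994 bp, signal 209.7) and C25F6.1 (992 bp, signal 98.6). The summits of snx-17, fbxl-4 and C25F6.1 were 43, 23 and 40 bp from a tRNA start.

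Some far peaks came in groups. Joining far peaks no more than 5000 bp apart gave 58 chains that held 137 of them, and 43 chains that held 95 when 1 peak per overlapping group was kept. Chains of 3 or more peaks fell from 12 to 4 in that count. Chains are given for far peaks only, so their number is not set against that of other regions. Another X peak within 5000 bp was 11.7 percentage points more frequent at far than at near peaks. Within 1000 bp the difference was 1.35 points. The largest chain had 7 peaks over 9855 bp near C02B4.3 and nlp-76, 4 of them at tRNA genes, with signals from 72.7 to 261.3. The next had 6 peaks over 11199 bp at lin-14, none at a tRNA gene, and the third had 5 over 12540 bp at mdl-1, a transcription factor of the MAD family. With 1 peak per overlapping group these 3 chains held 4, 5 and 5 peaks. In the mdl-1 chain the signals ran from 76.4 to 129.9.

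lin-14, the transcription factor whose fall times the passage between early larval stages, was the coding gene that contained most far peaks, with 6, not all of them in the chain just described. Their pooled signals lay between 69.6 and 131.7. The strongest, of rank 1261, had 64.2 in replicate 1 and 81.9 in replicate 2, and overlaps a weaker peak of rank 3405 that shares those replicate values. The lin-14 peak of rank 3899 was among the strongest of replicate 1 (rank 2486) but not of replicate 2 (rank 6616). daf-12, a nuclear receptor of the dauer decision, contained 3 with signals from 73.4 to 127.4. tbc-12, of a family of Rab GTPase regulators, also contained 3, from 68.5 to 149.9. The strongest of them had its summit 33 bp from a tRNA start, and 2 of the 3 peaks in the chain at tbc-12 were at tRNA genes. With 1 peak per overlapping group, the chains at daf-12 and tbc-12 held 2 peaks each. F09A5.3, 1 of 13 genes with 2, had signals of 309.5 and 88.1. In all 67 coding genes contained a far peak and 16 contained at least 2, with overlapping peaks counted separately.

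Nearest coding genes were also counted in lists made by gene symbol, which miss family members with other symbols. Genes with an nhr symbol, nuclear hormone receptors, were nearest to 10 far peaks (2.97%, interval 1.62 to 5.38), against 2.05% of near peaks and 2.73% of other far regions. The strongest of these were at nhr-17 (rank 207, signal 226.9), nhr-1 (rank 1214), nhr-40 (rank 1347) and nhr-71 (rank 1897). The receptor gene daf-12 (strongest peak of rank 1356) is not in that list. Adhesion and guidance genes were nearest to 6 (1.78%, against 1.77% of other far regions), led by the cadherin cdh-9 (rank 631) and the kinase mig-15 (rank 765), then by the syndecan sdn-1 (rank 1812) and the Robo receptor sax-3 (rank 2276). Ion channel genes were nearest to 5 far peaks (1.48%, interval 0.635 to 3.43) and to 4.01% of other far regions. These were the ligand-gated channel lgc-21 (rank 256), the potassium channel twk-21 (ranks 315 and 2951), and the gap junction gene unc-9 (ranks 1492 and 3614). The lgc-21 peak and the twk-21 peak of rank 315 were in the tRNA class, with summits 4 and 29 bp from a tRNA start. So was the cdh-9 peak, 7 bp from one. The symbols listed for G protein-coupled receptors gave 2 peaks. They were at npr-10, a neuropeptide receptor (rank 3223, in the tRNA class), and at tag-294 (rank 635), whose prefix does not name a receptor. That list leaves out nmur-1 (rank 2323), aexr-3 (rank 3786) and srg-64 (rank 594), which were each nearest to a far peak, so no share is drawn from it.

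The remaining lists had 3 peaks or fewer. In the list of bHLH and related factors, which leaves out mdl-1 with its 5 peaks, the proneural gene lin-32 had 1 (rank 457) and hlh-29 had 2 (ranks 497 and 1007). The lin-32 peak was in the tRNA class, with its summit 26 bp from a tRNA start. The 2 neuropeptide peaks were both at nlp-76, were both in the tRNA class and overlap each other. The collagen list had 3, near dpy-23, col-185 and dpy-3, although dpy-23 encodes no collagen. Dosage compensation genes had 2, the overlapping pair at xol-1. Homeobox genes and ribosomal protein genes had 0 of 337 (95% Wilson upper bound 1.13%), and homeobox genes had 19 of 3114 other far regions (0.61%). These lists hold few peaks each, and nothing particular to far peaks is read from them. Along the chromosome, far peaks numbered 18.3 per Mb in the left stretch, 18.6 in the central 50% and 20.5 in the right stretch, and near peaks 25.5, 23.4 and 27.1.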

How the data were processed

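Chromatin immunoprecipitation of tagged HMG-11 was done on 2 biological replicates of 1 group, per the labels. The authors deposited peak lists on ce11 and ce10, with 30000 regions per list for either replicate and for their pool, and 4037 peaks thresholded by the irreproducible discovery rate. The deposited signal value per region was made by the authors' peak caller. Its scale, the caller and the aligner: not given in the sources used here. Peaks are the 4037 strongest pooled regions by signal, so membership alone does not show that the replicates matched. Numbers of reads are unknown. The 4 ce11 lists were used, and no ce11 region ran past the end of its WBcel235 chromosome. The ce10 lists were not used here. Genes came from Ensembl release 115 and sequence from RefSeq, both for WBcel235.

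Distances ran from the summit to 31853 coding transcript starts. Each replicate alone was read through its 4037 strongest regions, and a pooled peak was matched to a replicate region overlapping it by at least 1 bp. Sequence was read 50 bp on either side of the summit. Shares carry 95% Wilson intervals, and no test over regions was made, since regions are not replicates. With 2 replicates of 1 group there was no comparison of conditions. The counting steps were tested on simulated data. Tools were Python 3.11.15, pandas 2.3.3, numpy 2.4.6, scipy 1.17.1 and matplotlib 3.10.9.

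The members and the gene lists were chosen with earlier results of these data known. Named were the 12 strongest far peaks, the 6 farthest, the 3 on either side of the distance limit, up to 5 per noncoding class, the 3 largest chains, the 4 genes containing most far peaks (the fourth the first by symbol of 13 tied genes) and up to 4 per gene list. All other peaks with the motif core, the printed GA repeat peaks besides ZK899.6, single lin-14 and unc-9 peaks, and the family members outside the symbol lists were named after their values were seen. Alternatives were each replicate alone, other distances, windows and spacings, the 2018 strongest peaks, starts of every gene class, and 1 peak per overlapping group, and those on overlapping peaks and tRNA genes were added after seeing the data.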

Additional observations from a re-analysis of the deposited data

How the results depend on the processing

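Over 13 results and 100 alternatives, 41 values moved by less than the spread between replicates or stayed within their limits, 56 moved further and 3 changed sign. Differences here are far minus near peaks in percentage points unless stated. The number of far peaks, 337, was 208 with a limit of 2000 bp, 166 among the 2018 strongest peaks and 180 when far meant far from starts of every gene class. The same 3 alternatives, in that order, gave a peak share difference of -7.14, -6.89 and -10.7 (-10.8 as reported), and a limit of 500 bp gave -14.6. The log2 signal ratio was -0.0662 among the strongest peaks. The share among the strongest of both replicates differed by -0.81 there, against -10.8 as reported.

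The intergenic share, far peaks minus other far regions, was 7.85, and it was 4.26 with 2000 bp, 12.1 with 500 bp, 10.8 among the strongest peaks and 21.7 with every class. The noncoding share on the same contrast was 21.9, and it was 26.7 among the strongest peaks and 18.9 for tRNA genes alone. It was 0.0949 with every class, where the rule itself removes noncoding starts within 1000 bp. A+T content differed by 2.04, and by 1.61 (2000 bp), 2.42 (strongest), 2.38 (every class), 1.6 (25 bp windows), 0.966 (100 bp windows) and 2.37 (without tRNA peaks). Against other far regions it was -10.3, and -11.8 for the strongest and -9.14 with 100 bp windows.

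The GAGAGA share differed by -6.06, and by -4.19 (2000 bp), -6.85 (500 bp), -11.3 (strongest), -8.28 (every class), -2.61 (25 bp windows), -5.29 (100 bp windows) and -5.02 (1 peak per overlapping group). The core share differed by 2.42, and by 4.82 (strongest), 5.11 (every class) and 0.436 (25 bp windows). The tRNA share differed by 14.1, and by 13.2 (2000 bp), 16.4 (500 bp), 22.7 (strongest), 13.4 (starts within 200 bp) and 13.9 (1 peak per overlapping group). It turned to -17.4 with every class, by construction. Another X peak within 5000 bp was 11.7 points more frequent at far peaks, and 1.35 points within 1000 bp. The share in the central 50% of the chromosome differed by 1.92, by 2.9 (2000 bp) and 3.39 (strongest), and turned to -3.95 with 500 bp and -11 with every class. Where no construction is named, the cause was not tested.

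Without replicate 1 or 2 in turn, the peak share difference ran from -10.1 to -9.97, the log2 ratio from -0.214 to -0.141, the intergenic share from 9.58 to 11.4, the noncoding share from 18.7 to 21.6 and A+T from 2 to 2.44. A+T against other far regions ran from -10.4 to -9.32, GAGAGA from -7.6 to -7.02, spacing from 10.7 to 15.8, the central share from 1.85 to 2.12, the core from 1.77 to 2.65 and tRNA from 13 to 13.1. No paired analysis was possible because there was 1 group. The lists hold no read depth, so differences between regions below the weakest listed signal were not detectable.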
